A study of Mus musculus with 9 samples.

Results

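The DNA replication genes described here are 40 mouse genes that act when a cell enters and passes through S phase. They were chosen by gene symbol under a rule that names no measured value, but with earlier results of these data known. Each symbol matched 1 Ensembl gene ID of the count table. The table held 41128 genes, of which 15271 passed a filter on low counts, and all 40 of 40 replication genes were among those. By role, 10 of them license replication origins, 6 activate the replicative helicase, 12 encode polymerase subunits, the sliding clamp, its loader or a single-strand binding protein, 2 join Okazaki fragments, 4 supply deoxynucleotides, 3 act on newly replicated chromatin and 3 control entry into S phase. The study sequenced total RNA of the dorsal telencephalon, the part of the forebrain that forms the cerebral cortex and hippocampus, from newborn (P0) mouse pups of the strain B6:129SF2/J. Groups of 3 libraries each were labelled TCF4 knockout (KO), TCF4 heterozygote (Het) and wild type (WT), and no treatment was named. Tcf4, the targeted gene, codes for an E-box binding transcription factor. The allele, the deleted part of the gene and the number of pups behind each library are not given in the sources used here, so the p-values below measure only the spread between these samples.

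DNA replication starts at origins, where the origin recognition complex together with Cdc6 and Cdt1 loads the ring-shaped MCM helicase onto DNA before S phase. Cdc45 and the GINS complex then join the ring and switch it on, polymerase alpha with primase starts each strand, and polymerases delta and epsilon extend it while held by the clamp PCNA. Much of this machinery is transcribed in a wave at the border of G1 and S phase, under E2F factors, so that its transcripts are abundant in cycling cells and scarce in postmitotic neurons. In the developing cortex the cycling cells are mainly radial glia and intermediate progenitors, and at birth most cells are already neurons.

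Total counts were 26355671 to 29445788 in KO-labelled, 24008445 to 29398411 in Het-labelled and 22291940 to 23813314 in WT-labelled libraries. Levels are given as CPM, a gene's share of the library's counts with library sizes scaled by TMM, and tests are edgeR's quasi-likelihood test with Benjamini-Hochberg adjustment over all 15271 genes. A gene is called where its adjusted p is under 0.05, and fold changes are log2 with their standard error (SE). Tcf4 itself was counted at 638, 633 and 611 CPM in KO-labelled, 822, 652 and 719 CPM in Het-labelled and 712, 728 and 584 CPM in WT-labelled libraries, and was not called in any comparison (log2 fold change -0.10 and adjusted p = 0.36 for KO versus WT). The gene-level count therefore did not check the labels, and KO, Het and WT below mean the libraries labelled so. The WT libraries also stood apart in the share of reads on processed pseudogenes, 0.0804% to 0.0939% in KO and 0.0917% to 0.1% in Het, against 0.253% to 0.313% in WT. Mitochondrial reads were 0.716% to 0.771% in KO and 0.769% to 0.84% in Het, against 1.01% to 1.14% in WT. A batch shared by the WT libraries and the genotype cannot be told apart, and the part of these shares in the results was not tested. KO replicate 3 was the only library with Xist and without Ddx3y counts (2730 and 2). WT replicate 2 had 1926 counts of Fos, against 19 to 95 in the other libraries. Fits without it are among the alternatives below. Within a genotype the median coefficient of variation of the replication genes was 7.01% in KO, 7.96% in Het and 6.24% in WT.

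Transcripts of the replication machinery were more abundant in KO than in WT. Of the 40 genes, 32 were called higher and 1 lower, beside 26.5% of all tested genes called higher and 26.3% called lower. Their median log2 fold change was 0.54, against 0.01 over all tested genes. The size was moderate, with 16 genes at least 1.5-fold higher (10.8% of all tested genes) and 4 at least 2-fold higher (4.59%), namely Tk1, Rrm2, Orc1 and Cdt1. In 32 genes all 3 KO libraries lay above all 3 WT libraries, which was the case for 31.9% of all tested genes, and in 2 genes, Mcm6 and Gins4, all 3 lay below (30.8%). Added up, the 40 genes had 998, 984 and 964 CPM in KO, 888, 874 and 893 CPM in Het and 689, 685 and 695 CPM in WT, and no 2 genotypes overlapped.

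Het stood between KO and WT for most of these genes. In Het versus WT, 28 genes were called higher and 0 lower by edgeR's quasi-likelihood test, beside 22.5% and 23.4% of all tested genes, and the median log2 fold change was 0.40. The other 12 were not called, 0 of them were lower at an unadjusted p under 0.05, and 0 were called lower under any alternative setting run, DESeq2 and limma included. All 3 Het libraries lay above all 3 WT libraries in 28 genes and below them in 1, E2f1, each beside 26.8% of all tested genes. The order of the means was KO above Het above WT in 24 of the 40 genes, an order that 26.2% of all tested genes had. Het was the highest genotype in 10 genes. KO and Het share their WT libraries, so both sets of fold changes move together with any deviation of those 3 libraries.

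**Figure D1:**
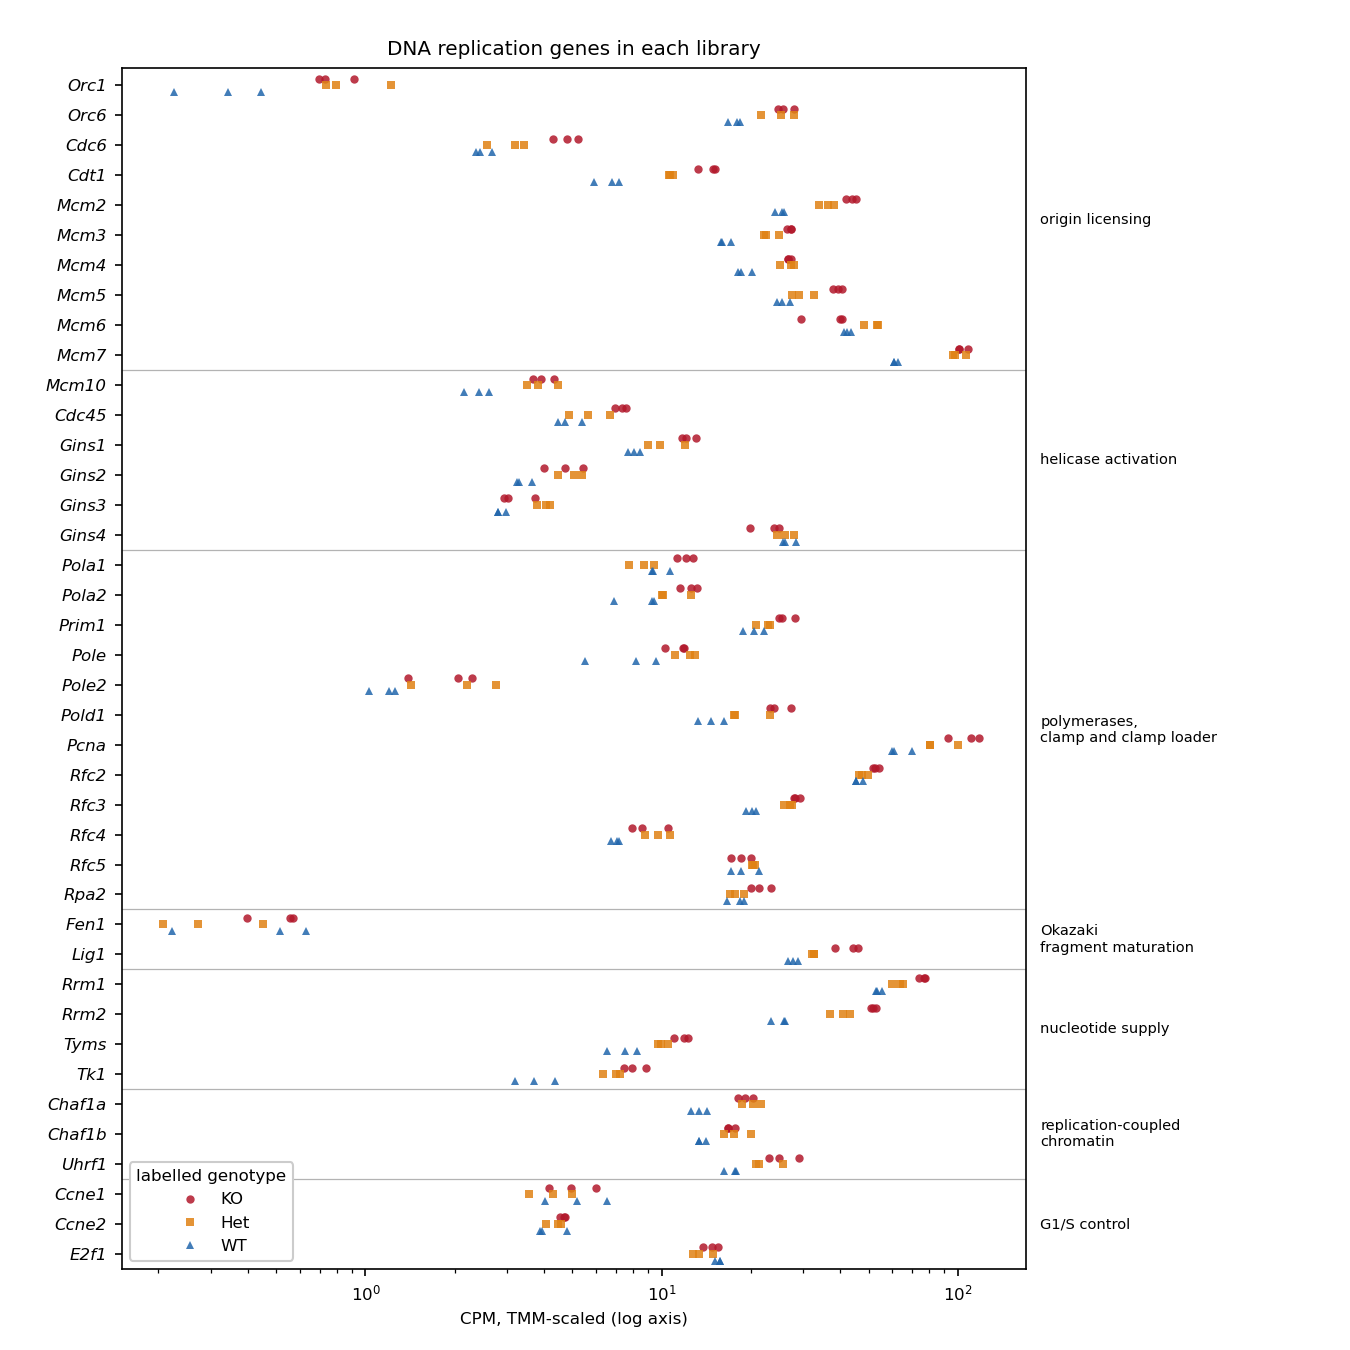
CPM of each of the 40 replication genes in each library on a log axis, with KO libraries as circles, Het as squares and WT as triangles, grouped by role. Of the genes shown, 32 have all KO points to the right of all WT points; Mcm6 and Gins4 have them to the left.

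Of the 10 listed genes of origin licensing, nearly all were higher in KO and in Het. All of them except Mcm6 were called higher in KO and, in a comparison that shares the WT libraries, all except Cdc6 were called higher in Het (9 of 10 each time), with medians of 0.74 and 0.50. Of all tested genes, 26.5% were called higher in KO and 22.5% in Het. Cdt1, which brings the MCM ring to the origin, had 14.9, 15.2 and 13.3 CPM in KO, 10.7, 10.6 and 10.9 CPM in Het and 7.18, 5.92 and 6.8 CPM in WT. The genotypes did not overlap, and each step was called (1.12 ± 0.11, adjusted p = 2.5e-07 for KO versus WT, 0.69 ± 0.11, adjusted p = 8.3e-05 for Het versus WT, and 0.43 ± 0.10, adjusted p = 0.0089 for KO versus Het by edgeR). The last of these was lost without KO replicate 2 (adjusted p = 0.055). Cdc6, the loading ATPase that works with Cdt1, had 4.78, 4.3 and 5.21 CPM in KO, 3.2, 2.57 and 3.42 CPM in Het and 2.44, 2.36 and 2.67 CPM in WT. Here KO stood alone, called against WT (0.94 ± 0.17, adjusted p = 0.00017) and against Het (0.64 ± 0.16, adjusted p = 0.011), while Het and WT overlapped (0.30 ± 0.17, adjusted p = 0.17). Without Het replicate 2, the lowest Het library, Cdc6 was not called in KO versus Het (0.51, adjusted p = 0.068). Orc1, the largest subunit of the origin recognition complex, was near the low end of detection, with 0.697, 0.914 and 0.73 CPM in KO, 0.738, 1.22 and 0.795 CPM in Het and 0.226, 0.445 and 0.344 CPM in WT. KO and Het both lay above WT without overlap (1.19 ± 0.38, adjusted p = 0.013 in KO and 1.43 ± 0.37, adjusted p = 0.0043 in Het), but the KO call was lost without KO replicate 2 (adjusted p = 0.052) or WT replicate 1 (adjusted p = 0.062). Orc6, another origin recognition subunit, was higher by 0.57 in KO and 0.50 in Het. The other subunits, which are not among the 40 genes, mostly did not rise in KO. There Orc4 was called higher (0.24), and Orc2 (0.06), Orc3 (-0.06) and Orc5 (-0.21) were not called. In Het, Orc2 (0.37) and Orc4 (0.26) were called higher, and Orc3 (0.04) and Orc5 (-0.05) were not called.

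Within the MCM helicase, a ring built from Mcm2, Mcm3, Mcm4, Mcm5, Mcm6 and Mcm7, the subunits separated. Mcm2 had 44.1, 45.5 and 41.8 CPM in KO, 34.1, 36.4 and 38.2 CPM in Het and 25.9, 25.5 and 24.2 CPM in WT. Its libraries fell into 3 separate steps, called at 0.80 ± 0.07 (adjusted p = 1.1e-07) for KO versus WT, 0.52 ± 0.07 (adjusted p = 1.9e-05) for Het versus WT and 0.27 ± 0.07 (adjusted p = 0.013) for KO versus Het. The KO versus Het call was lost without KO replicate 1 or 2 or Het replicate 1 or 2 (adjusted p = 0.057, 0.079, 0.052 and 0.052). Mcm5 had 40.5, 39.5 and 37.9 CPM in KO, 27.5, 29.1 and 32.6 CPM in Het and 24.6, 25.5 and 27.1 CPM in WT, so most of its difference lay between KO and Het (0.40 ± 0.08, adjusted p = 0.0015) and less between Het and WT (0.21 ± 0.08, adjusted p = 0.036). That smaller call was lost with DESeq2 (adjusted p = 0.051), in a fit of the compared genotypes alone (adjusted p = 0.06) and without KO replicate 2, Het replicate 3 or WT replicate 1 or 2 (adjusted p from 0.05 to 0.13). Mcm7, the most abundant licensing transcript, had 101, 101 and 108 CPM in KO, 97.7, 96.5 and 107 CPM in Het and 61, 60.8 and 62.6 CPM in WT. KO and Het overlapped here and both lay far above WT (0.75 ± 0.06, adjusted p = 1.1e-08 and 0.71 ± 0.06, adjusted p = 3.8e-08). Of its 31-base words, 33.36% also occur in other genes, led by Gm5487 and by Ap4m1, which overlaps it on the opposite strand. Mcm3 and Mcm4 were called higher in KO (0.73 and 0.51) and in Het (0.50 and 0.51).

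Mcm6 was not called higher in KO. It had 40.8, 39.9 and 29.6 CPM in KO, 48.4, 53.5 and 53.8 CPM in Het and 42.2, 41.4 and 43.5 CPM in WT, so Het was above and KO below every WT library. The drop of KO against Het was called (-0.50 ± 0.10, adjusted p = 0.0030) and stayed called under every alternative setting, with adjusted p from 2.4e-08 to 0.026. Het versus WT was called higher (0.29 ± 0.10, adjusted p = 0.026), a call lost without Het replicate 2 or 3 or any 1 WT library (adjusted p from 0.053 to 0.073). KO versus WT was not called (-0.21 ± 0.10, adjusted p = 0.098), and its size hung on KO replicate 3, since the value was -0.07 (adjusted p = 0.46) without that library. It passed the threshold without KO replicate 1 (-0.29, adjusted p = 0.039). Set against the geometric mean of the other 5 MCM subunits and scaled to the WT mean, Mcm6 stood at 0.60, 0.59 and 0.44 in KO, 0.86, 0.91 and 0.85 in Het and 0.99, 0.99 and 1.02 in WT. These ratios fell into 3 separate steps, and the log2 difference was -0.90 for KO versus WT, -0.20 for Het versus WT and -0.70 for KO versus Het. Mcm6 was set against its partners because it differed from them, so the ratio is a description. The gene (chr1:128331590-128359664, minus strand, mm10) has no exon overlap with another gene and shares 1.35% of its 31-base words with other genes.

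**Figure D2:**
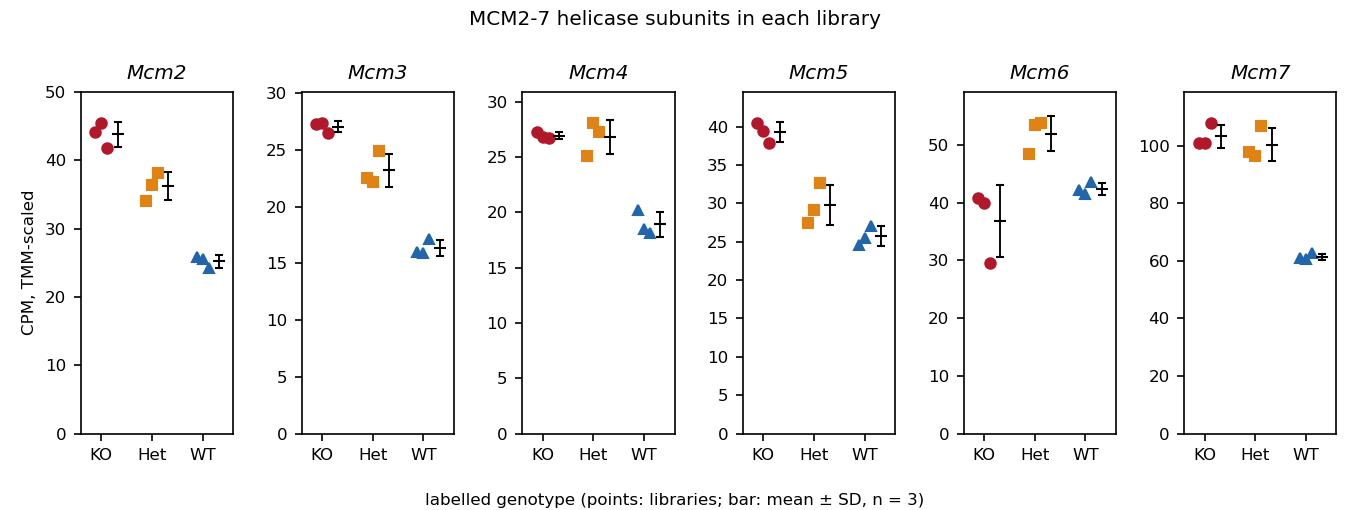
CPM of the 6 MCM helicase subunits by labelled genotype, each point 1 library and each bar the mean ± SD of 3 libraries, on linear axes from 0. Mcm6 is the only panel in which the KO points (29.6 to 40.8 CPM) lie below the WT points (41.4 to 43.5 CPM).

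Promoter windows were examined for the letters that E2F factors recognise, because the licensing genes moved together and Mcm6 did not. RefSeq windows on GRCm38.p6, the assembly also called mm10, run from 250 bases before to 50 after a transcript start and were found for 33 of the 40 genes (38 windows). The words searched on both strands were TTTCCCGC, TTTGGCGC, TTTCGCGC and TTTGCCGC, and at least 1 was present in 14 of 33 genes (42.4%), against 2.6% of 27025 genes with a window. Licensing genes held it in 7 of 9 (77.8%) and nucleotide supply genes in 0 of 4. In the windows below, capitals mark these words on either strand, and overlapping words form 1 capital run.
Mcm3 promoter, chr1:20820263-20820562, minus strand: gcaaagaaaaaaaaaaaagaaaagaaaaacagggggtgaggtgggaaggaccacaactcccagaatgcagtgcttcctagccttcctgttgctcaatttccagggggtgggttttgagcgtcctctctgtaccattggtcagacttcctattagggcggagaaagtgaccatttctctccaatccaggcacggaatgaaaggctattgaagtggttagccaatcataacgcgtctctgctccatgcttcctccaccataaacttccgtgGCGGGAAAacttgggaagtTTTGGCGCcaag
Mcm5 promoter, chr8:75109259-75109558, plus strand: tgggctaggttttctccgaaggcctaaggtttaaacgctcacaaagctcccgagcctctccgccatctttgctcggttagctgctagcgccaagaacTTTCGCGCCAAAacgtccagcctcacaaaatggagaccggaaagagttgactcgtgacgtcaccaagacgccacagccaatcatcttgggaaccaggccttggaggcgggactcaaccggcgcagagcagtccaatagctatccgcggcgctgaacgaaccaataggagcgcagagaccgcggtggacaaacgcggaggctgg
Mcm7 promoter, chr5:138171834-138172133, minus strand: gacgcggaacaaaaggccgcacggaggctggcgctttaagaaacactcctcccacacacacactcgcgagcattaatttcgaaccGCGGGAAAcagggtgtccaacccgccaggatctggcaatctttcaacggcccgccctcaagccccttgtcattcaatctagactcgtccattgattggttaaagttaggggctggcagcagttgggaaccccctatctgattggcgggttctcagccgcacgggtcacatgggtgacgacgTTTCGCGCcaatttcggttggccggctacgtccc
Mcm6 promoter, chr1:128359656-128359955, minus strand: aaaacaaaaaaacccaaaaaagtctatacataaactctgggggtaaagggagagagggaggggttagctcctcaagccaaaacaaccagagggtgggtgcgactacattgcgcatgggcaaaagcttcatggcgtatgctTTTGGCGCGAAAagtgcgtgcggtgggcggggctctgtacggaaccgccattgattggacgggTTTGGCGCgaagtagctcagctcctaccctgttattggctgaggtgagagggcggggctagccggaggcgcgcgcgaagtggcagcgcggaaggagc
Rrm2 promoter, chr12:24708004-24708303, plus strand: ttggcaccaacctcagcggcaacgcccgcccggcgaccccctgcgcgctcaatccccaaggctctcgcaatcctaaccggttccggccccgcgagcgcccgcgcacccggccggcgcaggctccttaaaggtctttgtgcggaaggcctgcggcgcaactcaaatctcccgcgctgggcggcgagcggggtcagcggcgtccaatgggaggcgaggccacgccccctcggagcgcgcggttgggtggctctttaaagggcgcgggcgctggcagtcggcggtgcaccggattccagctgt
The first 3 windows belong to MCM subunits called higher in KO, and each holds 2 of the words. A second Mcm7 window, chr5:138171217-138171516, holds none, and neither does that of Mcm2 (chr6:88898731-88899030), another subunit called higher in KO. The Mcm6 window holds 3, at -110, -106 and -47 from the start, although its transcript was not higher in KO. Those at -110 and -106 overlap in 1 capital run, as do the 2 in the Mcm5 window, so words counted are not separate sites. Rrm2, 1 of the 4 genes at least 2-fold higher in KO, holds no such word in its window. A match is a string of letters and not a measured binding site. None of the promoter shares given here was matched for the base composition of the windows, and every E2F word searched holds CG. Tcf4 and its partners recognise E-boxes, and CAGCTG was present in 4 of 33 replication genes (12.1%, against 18.3% of all genes), CACCTG in 3 (9.09%, against 22.6%) and CATCTG in 3 (9.09%, against 19.2%).

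Helicase activation was more mixed. In KO versus WT 4 of 6 genes were called higher and 1 lower, beside 26.5% and 26.3% of all tested genes. In Het versus WT 4 were called higher, beside 22.5%. Mcm10, which helps to start the assembled helicase, had 4.32, 3.92 and 3.69 CPM in KO, 3.81, 3.52 and 4.46 CPM in Het and 2.62, 2.41 and 2.15 CPM in WT. KO and Het overlapped and both lay above WT (0.73 ± 0.17, adjusted p = 0.0014 and 0.72 ± 0.17, adjusted p = 0.0022). Cdc45 was called higher in KO (0.58, adjusted p = 0.0024) and not in Het (0.24, adjusted p = 0.19), and the difference between KO and Het was not called (0.34, adjusted p = 0.10). The 4 GINS subunits, which act as 1 complex, did not move together. Gins1 (0.61 in KO, 0.35 in Het) and Gins2 (0.47 and 0.54) were called higher in both, although 66.2% of the words of Gins2 are shared with Gse1 on the opposite strand. The Gins1 call in Het was lost without Het replicate 3 or WT replicate 1 or 3 (adjusted p = 0.13, 0.075 and 0.06), and the Gins2 call in KO without KO replicate 2 or WT replicate 1 or 2 (adjusted p = 0.1, 0.057 and 0.051).

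Gins3 had 3.03, 2.93 and 3.75 CPM in KO, 4.06, 4.2 and 3.8 CPM in Het and 2.98, 2.81 and 2.8 CPM in WT. All Het libraries were above all others, and KO overlapped WT (0.18 ± 0.16, adjusted p = 0.37). The Het call (0.49 ± 0.16, adjusted p = 0.020) was lost with DESeq2 (adjusted p = 0.052) and without WT replicate 3 (adjusted p = 0.056). Gins4, the most abundant of the 6 in CPM, had 23.9, 19.9 and 25 CPM in KO, 28, 26 and 24.5 CPM in Het and 26.2, 28.5 and 25.7 CPM in WT. It was the 1 gene called lower in KO (-0.22 ± 0.09, adjusted p = 0.045), with Het overlapping both other genotypes. The call was lost under 13 of 20 alternatives (adjusted p up to 0.25), among them leaving out KO replicate 1 or 2, Het replicate 2 or any 1 WT library, and without KO replicate 2 the value was -0.13. Relative to the geometric mean of the other 3 GINS subunits, and scaled to the WT mean, Gins4 was at 0.68, 0.54 and 0.71 in KO, 0.77, 0.73 and 0.64 in Het and 1, 1.06 and 0.94 in WT. In this ratio, a description of a gene picked for going against its partners, KO and Het lay below WT (log2 differences -0.65 and -0.50) and overlapped each other (-0.15).

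Among the polymerases, the clamp and its loader, 11 of 12 genes were called higher in KO and 7 of 12 in Het. Of all tested genes, 26.5% and 22.5% were. Pcna, the clamp that holds polymerases on DNA, had 118, 111 and 92.4 CPM in KO, 100, 80.3 and 80.6 CPM in Het and 61.1, 69.9 and 60.1 CPM in WT. KO and Het overlapped, and both were above WT (0.75 ± 0.11, adjusted p = 0.00039 and 0.45 ± 0.11, adjusted p = 0.010). Pcna shares 23.29% of its words with other genes, mainly its processed copy Pcna-ps2, which had 0.105, 0.0381 and 7.11 CPM in KO, 0, 4.84 and 7.05 CPM in Het and 11.1, 11.4 and 11.4 CPM in WT. Counts of the copy were thus highest in WT and high in KO replicate 3, the KO library with the least Pcna. With both added, the sums were 118, 111 and 99.5 CPM in KO, 100, 85.1 and 87.6 CPM in Het and 72.2, 81.3 and 71.4 CPM in WT. The added sums gave smaller fold changes that were still called, 0.54 (adjusted p = 3.1e-05) in KO and 0.28 (adjusted p = 0.0075) in Het, and KO versus Het was then called (0.26, adjusted p = 0.030). Without the copy Pcna was not called in KO versus Het (0.30 ± 0.11, adjusted p = 0.11), but it was with DESeq2 (adjusted p = 0.025) and without KO replicate 3 or Het replicate 1 (0.39 and 0.40, adjusted p = 0.022 and 0.015). Pold1, the catalytic subunit of polymerase delta, had 24, 23.2 and 27.3 CPM in KO, 17.7, 17.6 and 23.2 CPM in Het and 16.2, 14.7 and 13.3 CPM in WT. It was called in all 3 comparisons (0.76 ± 0.11, 0.41 ± 0.11 and 0.35 ± 0.11), but KO versus Het (adjusted p = 0.041) was lost under 12 of 20 alternatives, among them leaving out any 1 KO library or Het replicate 1 or 2 (adjusted p from 0.061 to 0.20).

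Pola1, the catalytic subunit of polymerase alpha, separated KO from both other genotypes, with 11.3, 12.8 and 12.1 CPM in KO, 8.73, 7.78 and 9.41 CPM in Het and 10.7, 9.26 and 9.34 CPM in WT. KO exceeded Het by 0.48 ± 0.11 (adjusted p = 0.0068) and WT by 0.30 ± 0.11 (adjusted p = 0.031). The call against WT was lost with DESeq2 and with unfiltered limma on log2(FPKM + 1) (adjusted p = 0.053 each) and without KO replicate 2 or 3 or WT replicate 2 or 3 (adjusted p from 0.065 to 0.11). That limma fit also lost the call against Het (adjusted p = 0.053). Pola1 lies on chromosome X, and KO replicate 3, the library with Xist, had 12.1 CPM, between the other KO libraries. Rpa2, a subunit of the single-strand binding protein RPA, had 23.4, 21.4 and 20 CPM in KO, 17.7, 19 and 17 CPM in Het and 16.6, 18.4 and 19 CPM in WT. Het and WT overlapped, and KO was above both (0.26 ± 0.09, adjusted p = 0.018 against WT and 0.27 ± 0.09, adjusted p = 0.042 against Het). The Rpa2 call against WT was lost without KO replicate 1 or WT replicate 1 (adjusted p = 0.1 and 0.087), and that against Het under 10 of 20 alternatives, among them leaving out KO replicate 1 or 2, any 1 Het library or WT replicate 2 (adjusted p from 0.05 to 0.22). Rfc5 of the clamp loader, with 17.2, 18.6 and 20.1 CPM in KO, 20.2, 20.6 and 20.3 CPM in Het and 18.6, 17.1 and 21.3 CPM in WT, was the 1 gene of this group not called in KO (-0.03 ± 0.09, adjusted p = 0.82). Its partners in the loader were called higher in KO, by 0.50 for Rfc3, 0.37 for Rfc4 and 0.20 for Rfc2. Rfc2 was lost without KO replicate 2 (adjusted p = 0.057), and Rfc4 without KO replicate 3 or WT replicate 2 or 3 (adjusted p = 0.13, 0.06 and 0.051). Primase and polymerase subunits Prim1 (0.35), Pola2 (0.54), Pole (0.54) and Pole2 (0.71) completed the calls. Pole2 was at most 2.75 CPM in any library, and its KO call was lost with DESeq2 (adjusted p = 0.076), with unfiltered limma on log2(FPKM + 1) (0.34, adjusted p = 0.11) and without KO replicate 2 or 3 or any 1 WT library (adjusted p from 0.06 to 0.14). In Het, Pola2 (0.36), Pole (0.65) and Pole2 (0.85) were called higher. The Pola2 call was lost without KO replicate 1, Het replicate 3 or WT replicate 2 (adjusted p from 0.05 to 0.18). It was also lost with the compared genotypes alone (adjusted p = 0.061) and with unfiltered limma on log2(FPKM + 1) (adjusted p = 0.085). The Pole2 call was lost without Het replicate 1 or WT replicate 3 (adjusted p = 0.083 and 0.065) and with that limma fit (0.42, adjusted p = 0.061).

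**Figure D3:**
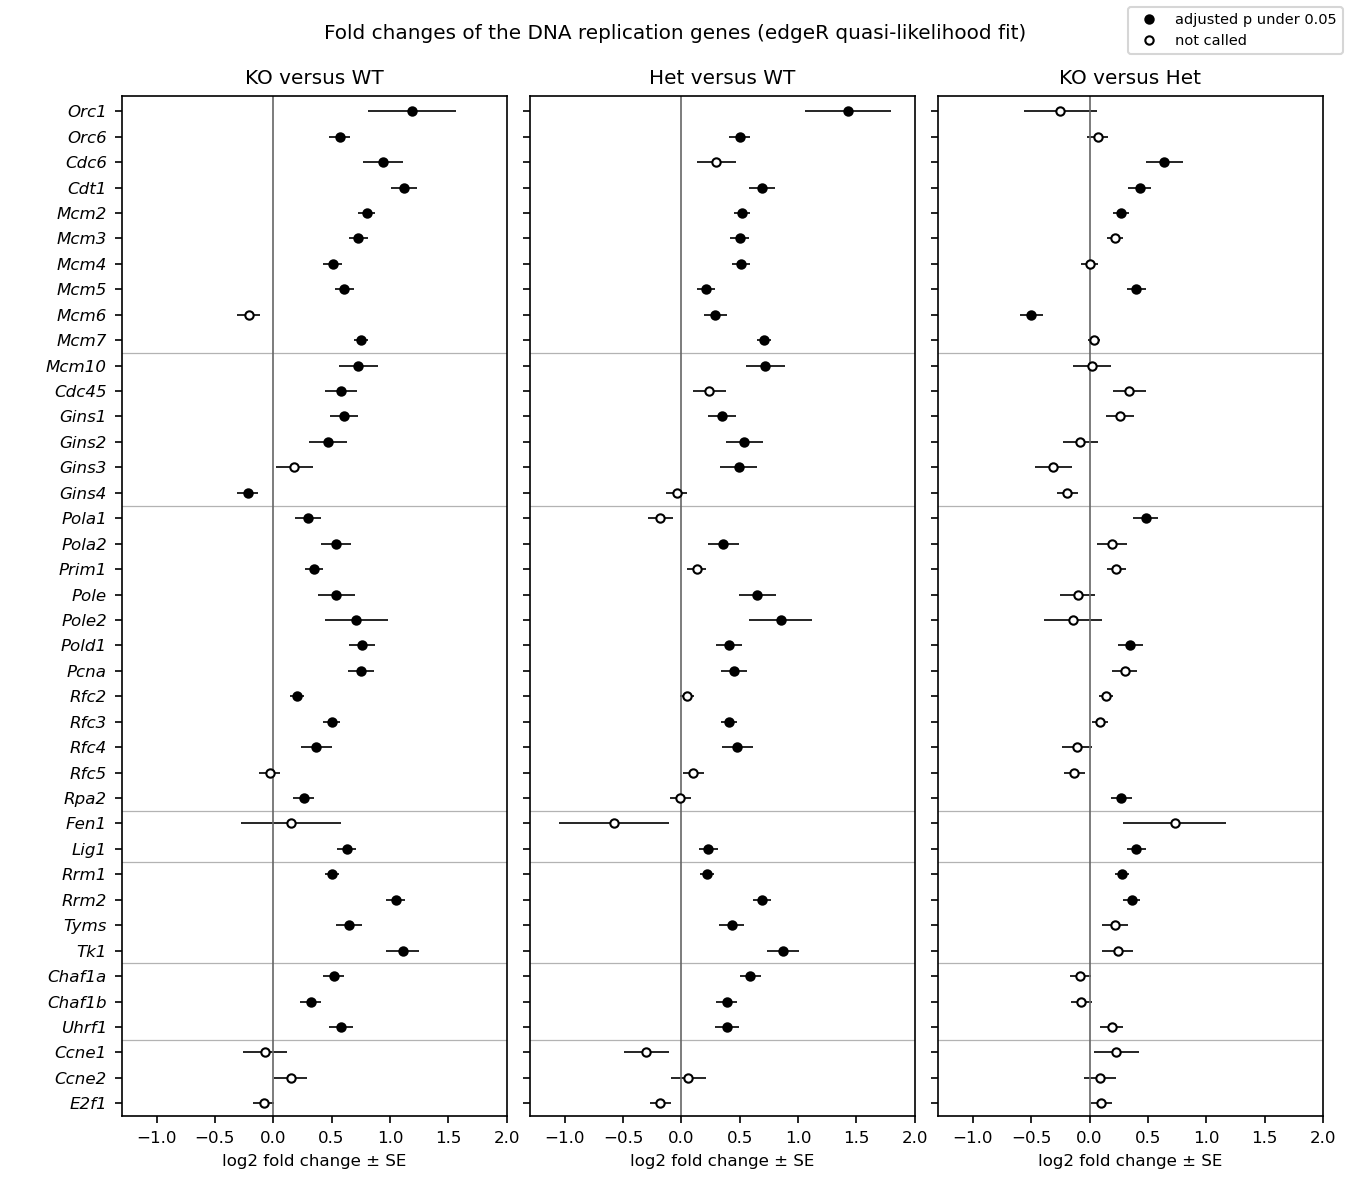
Log2 fold change ± SE of each replication gene in KO versus WT, Het versus WT and KO versus Het (3 libraries per genotype), with filled points for an adjusted p under 0.05. In the first panel 32 filled points lie right of 0 and 1, Gins4, left of it; in the third, Mcm6 is the 1 filled point left of 0.

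The remaining roles differed in their uniformity. Lig1, the ligase that seals Okazaki fragments, had 46, 44.4 and 38.5 CPM in KO, 32.6, 32.6 and 32.3 CPM in Het and 28.9, 27.7 and 26.7 CPM in WT. The 3 genotypes formed separate steps (0.63 ± 0.08, adjusted p = 3.1e-06 for KO versus WT, 0.23 ± 0.08, adjusted p = 0.023 for Het versus WT and 0.40 ± 0.08, adjusted p = 0.0013 for KO versus Het). The Het call was lost without WT replicate 2 or 3 (adjusted p = 0.057 and 0.094). Fen1, the flap nuclease of the same step, was listed at only 0.558, 0.571 and 0.398 CPM in KO, 0.451, 0.271 and 0.207 CPM in Het and 0.632, 0.223 and 0.516 CPM in WT. Its genotypes overlapped and nothing was called (0.15 ± 0.43, adjusted p = 0.79 for KO versus WT). Fen1 shares 79.63% of its words with Gm10143 and Tmem258, whose exons overlap it on the opposite strand. With this overlap and as few as 5 counts in a library, its level could not be judged.

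All 4 genes of nucleotide supply were called higher in KO and in Het, beside 26.5% and 22.5% of all tested genes. In all 4 every KO library was above every Het library, which was the case for 17.1% of all tested genes. Of these, Rrm1 and Rrm2 were called in KO versus Het, and Tk1 and Tyms were not. Rrm2, the S-phase subunit of ribonucleotide reductase, had 53, 51.8 and 51.1 CPM in KO, 43.3, 41.1 and 37 CPM in Het and 23.4, 26.1 and 25.9 CPM in WT. That is 2.07-fold higher in KO and 1.61-fold higher in Het than in WT, and each step was called (1.05 ± 0.08, adjusted p = 7.7e-09, 0.69 ± 0.08, adjusted p = 1.9e-06, and 0.36 ± 0.07, adjusted p = 0.0027 for KO versus Het). Rrm1, the large subunit of the same enzyme, had 77.2, 74 and 77.8 CPM in KO, 65.1, 63.9 and 60.1 CPM in Het and 52.8, 55.7 and 53.4 CPM in WT. It moved in the same order by less (0.50 ± 0.06, 0.22 ± 0.06 and 0.28 ± 0.06, all called). Tk1, the thymidine kinase of S-phase cells, had 7.95, 7.46 and 8.83 CPM in KO, 7.26, 6.33 and 6.99 CPM in Het and 3.7, 3.21 and 4.35 CPM in WT. It was 2.15-fold higher in KO (1.11 ± 0.14, adjusted p = 6.1e-06) and 1.82-fold higher in Het (0.87 ± 0.14, adjusted p = 0.00012), and KO versus Het was not called (0.24 ± 0.13, adjusted p = 0.25). Tyms, the thymidylate synthase, was higher by 0.65 in KO and 0.43 in Het.

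The 3 chromatin genes were called higher in KO and in Het (26.5% and 22.5% of all tested genes were), with KO and Het overlapping in each. Uhrf1, which guides maintenance methylation to replicated DNA, had 25, 23 and 29.1 CPM in KO, 20.9, 21.3 and 25.6 CPM in Het and 16.2, 17.7 and 17.8 CPM in WT (0.58 ± 0.10, adjusted p = 0.00012 in KO and 0.39 ± 0.10, adjusted p = 0.0042 in Het). Of its words, 24.25% occur in other genes. The chromatin assembly subunits were higher by 0.52 in KO and 0.59 in Het for Chaf1a and by 0.32 and 0.39 for Chaf1b, and KO versus Het was -0.08 ± 0.09 and -0.07 ± 0.09 for these. Of Chaf1a, 50.96% of the words are shared, mainly with Ubxn6. Ubxn6 itself was not called in either comparison (0.05 and 0.00).

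The 3 genes that control entry into S phase were the exception. By edgeR's quasi-likelihood test, 0 of 3 were called in any comparison, and 0 had an unadjusted p under 0.05. E2f1, an activating E2F, had 14.8, 15.5 and 13.8 CPM in KO, 12.8, 13.4 and 14.9 CPM in Het and 15.7, 15.7 and 15.2 CPM in WT, with KO overlapping both others and Het below WT (-0.08 ± 0.09, adjusted p = 0.48 and -0.18 ± 0.09, adjusted p = 0.11). Ccne1 had 4.95, 6.02 and 4.15 CPM in KO, 3.57, 4.97 and 4.29 CPM in Het and 5.19, 4.05 and 6.54 CPM in WT (-0.07 ± 0.19, adjusted p = 0.79 for KO versus WT). Ccne2 had 4.67, 4.53 and 4.71 CPM in KO, 4.59, 4.06 and 4.46 CPM in Het and 3.93, 3.88 and 4.78 CPM in WT (0.15 ± 0.14, adjusted p = 0.42). These encode the E cyclins, partners of the kinase Cdk2, and in both the 3 genotypes overlapped.

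Directly compared, 10 genes were called higher in KO than in Het and 1, Mcm6, lower, beside 8.3% and 8.44% of all tested genes. The 10 were Cdc6, Cdt1, Mcm2, Mcm5, Pola1, Pold1, Rpa2, Lig1, Rrm1 and Rrm2, and the median log2 fold change over all 40 was 0.19. Only Cdc6 passed 1.5-fold (1.98% of all tested genes did). Leaving out KO replicate 2 or Het replicate 2 reduced the 10 to 6. Of the 11 calls, 5 held under every alternative setting, those of Lig1, Mcm5, Mcm6, Rrm1 and Rrm2. In KO versus WT 25 of 33 calls held throughout, and in Het versus WT 21 of 28. Where a gene was called against WT in KO and not in Het (Cdc6, Cdc45, Pola1, Prim1, Rfc2 and Rpa2), KO versus Het was called for Cdc6, Pola1 and Rpa2 and not for Cdc45, Prim1 and Rfc2. Among genes without exon overlap and with under 5% of words shared, 18 of the 40, KO versus WT had 13 called higher and 1 lower, Het versus WT 12 and 0, and KO versus Het 6 and 1. Over all tested genes the shares were 26.5% and 26.3%, 22.5% and 23.4%, and 8.3% and 8.44%.

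Per unit of length, the deposited FPKM values place Pcna first in every genotype, at 119 ± 13 in KO, 98.1 ± 13 in Het and 69.2 ± 5.3 FPKM in WT (SD, n = 3). Mcm7 followed at 97.2 ± 5.7, 95.5 ± 6.3 and 56.4 ± 1.0 FPKM in KO, Het and WT, and Fen1 was last at 0.228, 0.14 and 0.2 FPKM. Rrm2 ranked 3 in KO (45.9 ± 0.49 FPKM) and 5 in WT (21.7 ± 1.0 FPKM). Mcm6 ranked 11 in KO (17.7 ± 2.8 FPKM), 5 in Het (25.3 ± 1.5 FPKM) and 6 in WT (19.9 ± 0.59 FPKM). The gene lengths behind these values ran from 30.4% of the longest GENCODE transcript for Rfc2 to 108.3% for Orc6, and Mcm7 was at 36.1%, so the order between genes carries that choice of length.

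Other genes of the same pathways gave a wider frame, and their counts stand beside 26.5% of all tested genes called higher and 26.3% called lower in KO versus WT. Of 30 further replication genes, 19 rose and 2 fell in KO. In Het, 14 rose and 3 fell, where the shares over all tested genes were 22.5% and 23.4%. For KO versus Het, 2 rose and 1 fell, where those shares were 8.3% and 8.44%. Ticrr, which helps load Cdc45, was higher by 0.96 ± 0.15 in KO, and Gmnn, the inhibitor of Cdt1, by 0.94 ± 0.17. Rpa3, the small RPA subunit, went the opposite way, with 7.81, 7.24 and 11.4 CPM in KO, 7.34, 6.56 and 5.57 CPM in Het and 20.3, 20 and 21.2 CPM in WT (-1.22 ± 0.15, adjusted p = 5.6e-06 and -1.66 ± 0.15, adjusted p = 5e-07). In the WT libraries, where Rpa3 was high, the processed pseudogene share was high too, and its part in the Rpa3 values was not tested. Pold2, a partner of Pold1 in polymerase delta, was higher in KO alone, with 64.4, 58.2 and 55 CPM in KO, 38, 28.3 and 32.2 CPM in Het and 30.9, 37.1 and 32.1 CPM in WT (0.85 ± 0.10, adjusted p = 4.3e-05 for KO versus Het). Of 10 further nucleotide supply genes 4 were called higher in KO and 2 lower, with a median of 0.12. Of 14 further S-phase chromatin genes 8 were called higher and 0 lower, led by the cohesin acetyltransferase gene Esco2 (1.16 ± 0.20) and by Atad2 (0.96 ± 0.14).

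Although E2f1 was not called, other E2F genes were. Of 21 further regulators of the border between G1 and S phase, the KO libraries had 16 called higher and 1 called lower. Of all tested genes, 26.5% were called higher and 26.3% lower. The repressive, S-phase E2F genes E2f8 (1.47 ± 0.16, adjusted p = 7.1e-07) and E2f7 (1.22 ± 0.14, adjusted p = 2.5e-06) and the activating E2f2 (1.34 ± 0.18, adjusted p = 1.2e-05) rose most. Inhibitors of cyclin-dependent kinases were mixed, with 3 of 6 tested genes called higher and 1 lower in KO. In Het 2 were called higher and 2 lower, beside 22.5% and 23.4% of all tested genes. Cdkn1b rose in KO (0.96 ± 0.06), with 221, 214 and 199 CPM in KO, 171, 160 and 159 CPM in Het and 106, 116 and 104 CPM in WT. Cdkn1a fell in KO (-0.60 ± 0.13) and in Het (-1.02 ± 0.13).

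Genes of mitosis, the phase that follows replication, had a larger median change. All 24 of 24 were called higher in KO (median 0.89), 17 of 24 in Het (median 0.48) and 14 of 24 in KO versus Het (median 0.44). The shares of all tested genes called higher were 26.5%, 22.5% and 8.3%. Their summed level was 441, 441 and 464 CPM in KO, 337, 325 and 346 CPM in Het and 246, 228 and 235 CPM in WT. The ratio of summed replication to summed mitosis CPM was therefore 2.26, 2.23 and 2.08 in KO, 2.64, 2.69 and 2.58 in Het and 2.8, 3 and 2.96 in WT, with no overlap between genotypes. The promoter words differed too, since 75% of 20 mitosis genes with a window hold the CHR word TTTGAA, against 12.1% of the replication genes and 20.2% of all genes, and 5% hold an E2F word.

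Lists of cell type markers were summed in the same way. The 7 markers of intermediate progenitors, among them Eomes and Neurog2, summed to 411, 406 and 439 CPM in KO, 261, 234 and 262 CPM in Het and 121, 119 and 103 CPM in WT. The genotypes did not overlap and had the order of the summed replication genes. In KO 7 of 7 were called higher, beside 26.5% of all tested genes. The 9 markers of radial glia summed to 1370, 1270 and 1320 CPM in KO, 1250, 1170 and 1280 CPM in Het and 1410, 1400 and 1470 CPM in WT. Every KO and Het sum thus lay below every WT sum, against the direction of the summed replication genes. The single markers were mixed, with 4 called higher and 2 lower in KO and 4 higher and 3 lower in Het. Their median log2 fold change was 0.12 in KO (from -0.73 to 1.09) and -0.19 in Het (from -0.80 to 0.85). The lower KO sum was therefore not the direction of the median marker. The 7 markers of postmitotic neurons summed to 8250 to 8550 CPM in KO, 8230 to 8840 CPM in Het and 8690 to 9270 CPM in WT. They mark neurons and not a brain region, so they do not check the dorsal label. Against WT, calls among these 7 were 0 upward and 3 downward for KO, and 1 upward and 4 downward for Het. Downward calls made up 26.3% and 23.4% of all tested genes. As for radial glia, lower sums in KO and Het than in WT were seen for oligodendrocyte progenitors (171 to 203 CPM in KO, 174 to 180 CPM in Het and 326 to 354 CPM in WT), astrocytes (133 to 160, 166 to 199 and 351 to 400 CPM), microglia (41.1 to 42.1, 37.3 to 40.2 and 79.2 to 89.7 CPM) and ventral progenitors with interneurons (294 to 322, 275 to 293 and 350 to 385 CPM). Of the other lists, endothelium had 163 to 167 CPM in KO, 163 to 180 CPM in Het and 140 to 144 CPM in WT, and meninges 42.3 to 51.5, 41.2 to 49.2 and 40.9 to 51.1 CPM. Choroid plexus markers had 9.23 to 28.2 CPM in KO, 1.68 to 18.6 CPM in Het and 1.38 to 2.98 CPM in WT. Their means had the same order, KO above Het above WT, but Het overlapped both other genotypes. Erythroid markers had 236 to 285, 169 to 249 and 187 to 357 CPM. More or fewer cells of a type and more or less RNA per cell cannot be told apart in bulk tissue, and the part of cell makeup in the replication gene results was not tested.

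**Figure D4:**
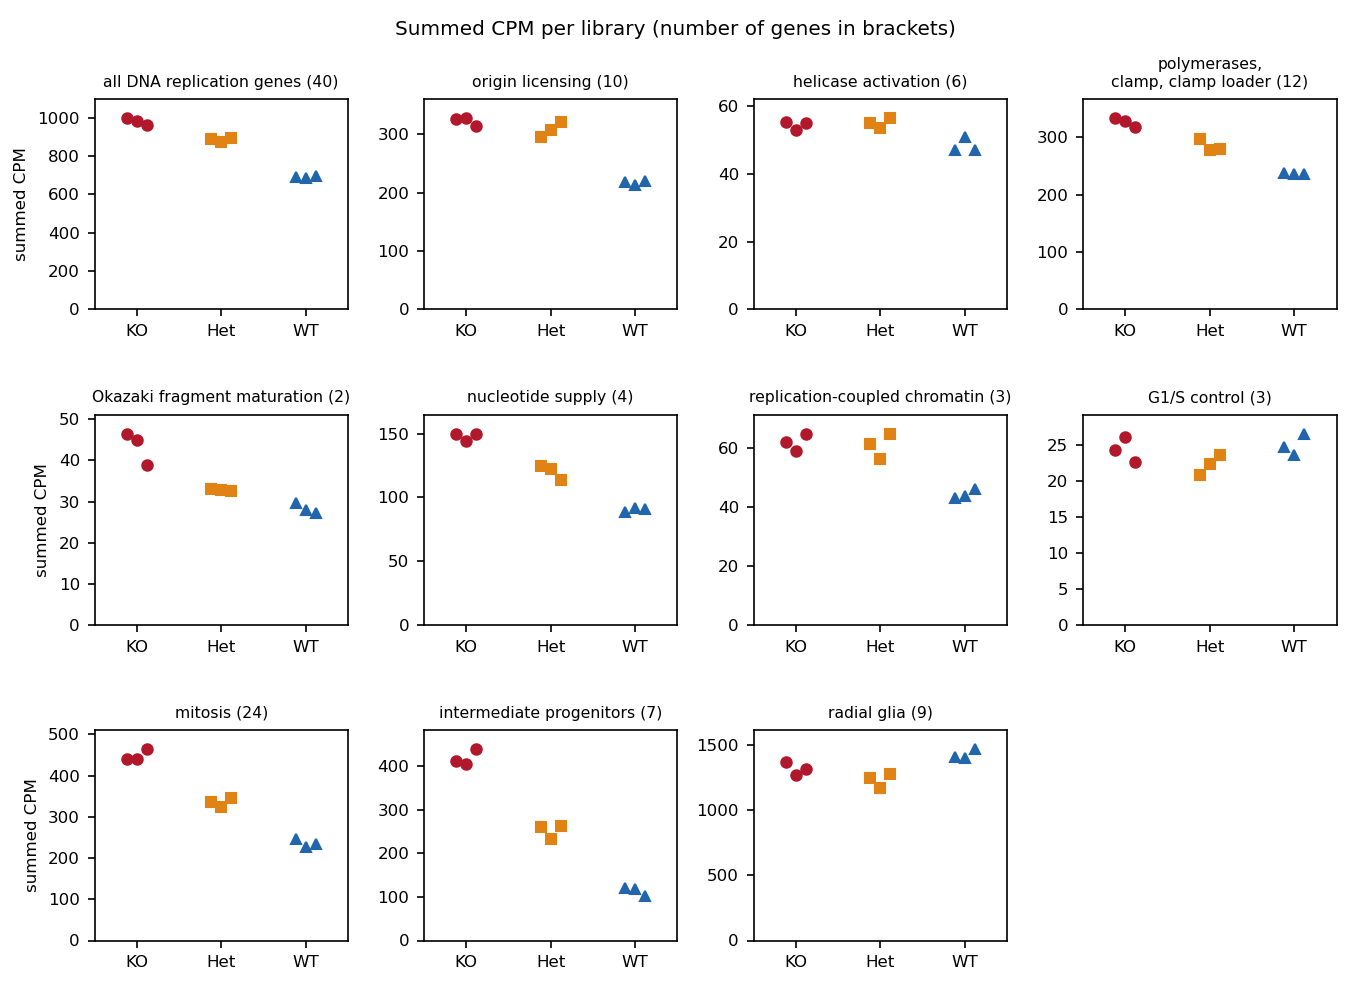
Summed CPM per library for the replication genes, for each of their roles and for the mitosis, intermediate progenitor and radial glia lists, each point 1 library, on linear axes from 0. The sums of all replication genes lie at 964 to 998 CPM in KO, 874 to 893 CPM in Het and 685 to 695 CPM in WT, whereas the G1/S control genes overlap between genotypes.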

How the data were processed

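Total RNA was made into sequencing libraries with the NEBNext Ultra RNA kit, per the labels' protocols. The authors deposited a table of raw read counts per gene for the 9 libraries. They also deposited a table of FPKM values, which equal each count divided by a fixed length per gene and by the library total. The submitters' processing notes name mm10, TopHat2 2.0.9, Bowtie2 2.0.6, HTSeq 0.6.1 and DESeq 1.10.1. The use of strand and the treatment of reads with several matches are not stated there.

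Tests on the counts were run with edgeR 4.0.16 in R 4.3.3 (filterByExpr with a minimum count of 10 and a minimum total of 15, TMM factors, robust quasi-likelihood fit over all 9 libraries, Benjamini-Hochberg adjustment, threshold 0.05). The script was tested on simulated counts first. Alternatives used other scalings and filters, DESeq2 1.42.0, limma 3.58.1 on log2(FPKM + 1) and log2(FPKM + 0.1), a replicate block, the compared genotypes alone, and each library left out in turn. Shared 31-base words and exon overlaps came from GENCODE M21 transcripts, and promoters from RefSeq.

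Per-library values are given for the most abundant and the most changed gene of each role, for genes not called or going against most others in KO versus WT, and for genes called in KO versus Het. The genes and lists were chosen with earlier results of these data known. Same-numbered libraries did not deviate together (correlations -0.11 to 0.08). No 2 libraries of the same genotype agreed within sampling noise.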

Additional observations from a re-analysis of the deposited data

How the results depend on the processing

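Of the 33 calls in KO versus WT 25, of the 28 in Het versus WT 21 and of the 11 in KO versus Het 5 held under every alternative. The count called lower in KO versus WT, 1 in the fit reported, was 0 with upper-quartile factors, library totals, the replicate block, DESeq2 and limma, 2 without a filter, and 0 to 1 with 1 library left out (0 without KO replicate 2, Het replicate 2 or any 1 WT library). The KO versus WT median was 0.58 with library totals, 0.47 with limma on log2(FPKM + 1), filtered or not, and 0.59 on log2(FPKM + 0.1). The Het versus WT median was 0.44 with upper-quartile factors and limma on log2(FPKM + 0.1), 0.45 with library totals and 0.36 to 0.43 with 1 library left out. The KO versus Het median was 0.14 with limma on log2(FPKM + 1), filtered or not, and 0.12 to 0.19 with 1 library left out. All genes called in KO versus Het numbered 1512 with unfiltered limma and 1432 to 2561 with 1 library left out (1467 without KO replicate 1 and 1432 without KO replicate 2), and replication genes called higher there numbered 6 to 12 (6 without KO replicate 2 or Het replicate 2). Among the 18 genes without exon overlap and with few shared words, a setting chosen after seeing the data, 13, 12 and 6 were called higher in KO versus WT, Het versus WT and KO versus Het. Over all tested genes, the shares called higher were 26.5%, 22.5% and 8.3%.

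Directions reversed for genes that were not called. In KO versus WT, Rfc5 was 0.01 with library totals and limma and -0.10 to 0.06 with 1 library left out, Ccne1 was -0.22 to 0.12 and Fen1 -0.18 to 0.44. In Het versus WT, Gins4 was 0.01 with library totals and limma and -0.07 to 0.01 with 1 library left out. Rpa2 there was 0.03 with upper-quartile factors, 0.04 with library totals and limma on log2(FPKM + 1), 0.01 without a filter, 0.05 on log2(FPKM + 0.1) and -0.06 to 0.04 with 1 library left out. In KO versus Het, leaving out 1 library gave -0.18 to 0.02 for Gins2, -0.07 to 0.12 for Mcm10, -0.01 to 0.09 for Mcm7, -0.38 to 0.01 for Orc1, -0.03 to 0.15 for Orc6 and -0.37 to 0.07 for Pole2. The cause was not tested.

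With the replicate block, replication genes called higher numbered 32 in KO versus WT, 27 in Het versus WT and 10 in KO versus Het, with medians of 0.56, 0.40 and 0.19. Of all 15271 tested genes, 3908, 3259 and 1076 were called higher with the block. The block lost the calls of Gins4 in KO versus WT (adjusted p = 0.058), Mcm5 in Het versus WT (0.05) and Rpa2 in KO versus Het (0.064) and gained that of Pcna in KO versus Het (0.027), and the numbers do not pair the samples. Orc1 and Fen1, with as few as 5 counts in a library, did not pass a filter of at least 1 CPM in 3 libraries. With so few counts their differences are the least certain.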
